A study of Mus musculus with 16 samples.

Results

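Marker genes of 6 lineages that are not skeletal muscle were examined in chromatin immunoprecipitation sequencing (ChIP-seq) data from cultured mouse muscle stem cells. The set held 34 of the 21631 genes examined: 10 endothelial, 7 immune, 4 glial, 5 fibroblast, 4 adipocyte and 4 pericyte markers. They were listed by name and not by a measured value, but with earlier results of these data known. Merged peak regions were given to the gene body that they overlapped, or to the nearest one within 50 kb.

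The cells were satellite cells taken from the hindlimb of C57BL/6 mice, kept in culture and exposed to small interfering RNA (siRNA) for 48 h. The labels name the long noncoding RNA LncMyoD as the siRNA target and separate control from LncMyoD-KD (knockdown) libraries by title and genotype. The treatment text is the same for both, so what the control cells received is not known here. For each of 2 antibodies, against the histone acetylation H3K27ac and against the myogenic factor MyoD, 2 control and 2 knockdown libraries were used, 8 of the 16 samples, and 8 inputs were not used here. The labels do not say whether replicates were separate animals or cultures, so p-values measure only the spread between these libraries, which may be technical.

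H3K27ac marks active promoters and enhancers, and genes in use usually carry it at their transcription start. MyoD is a basic helix-loop-helix factor that drives the skeletal muscle programme and binds the short DNA motif called the E-box. Endothelial cells, pericytes, fibro-adipogenic cells, Schwann cells and leukocytes all share the muscle with satellite cells, and their markers are the usual check on the purity of an isolated culture. RNA was not measured in these libraries, and peak calls on bulk chromatin cannot tell a peak in a minor share of cells from a weaker peak in every cell.

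The peak lists differed in length. The H3K27ac lists held 39964 to 54082 peaks and the MyoD lists 13146 to 17818, and in both the shortest list was that of knockdown 2. Read depth is unknown, because the lists hold no read counts. The 10 muscle reference genes were picked after earlier results of these data had been seen. Their counts describe the list and cannot test the labelled cell type. All 10 (Myod1, Myf5, Myog, Pax7, Cdh15, Des, Chrna1, Itga7, Vcam1 and Mymk) carried H3K27ac in every library within 1 kb of a gene end. A MyoD region in all 4 libraries was found at 9 of the 10. Over all genes these shares were 37.2% for H3K27ac and 22.5% for MyoD. Among the 10, the highest in H3K27ac was Chrna1, a subunit of the muscle acetylcholine receptor. Its fold enrichments were 24.9 and 29.9 in control and 26.9 and 23.6 in knockdown libraries. The muscle cadherin gene Cdh15 stood at 20.5, 22.5, 21.6 and 22.8, and the desmin gene Des at 13.8, 13.6, 15.5 and 12.9, in the same library order. Fold enrichments are the peak caller's values for each list and are given as a description.

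Acetylation within 1 kb of a gene end was found at a minority of the non-muscle markers. In every library, an H3K27ac peak lay within 1 kb of either gene end at 7 of the 34 markers (20.6%), against 37.2% of all 21631 genes. The 7 were Tek, Eng, Cd68, Spi1, Gsn, Cebpa and Rgs5. By lineage they made up 2 of 10 endothelial, 2 of 7 immune, 0 of 4 glial, 1 of 5 fibroblast, 1 of 4 adipocyte and 1 of 4 pericyte markers. Another 22 markers had no such peak in any library. Cd3e had it in 3 libraries, and Dpt, Pparg, Mcam and Abcc9 in 1 each. The count depended on the limit: within 2 kb of a gene end it was 11. The share of all genes at that limit is not given here, so the comparison holds for 1 kb only.

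**Figure D1:**
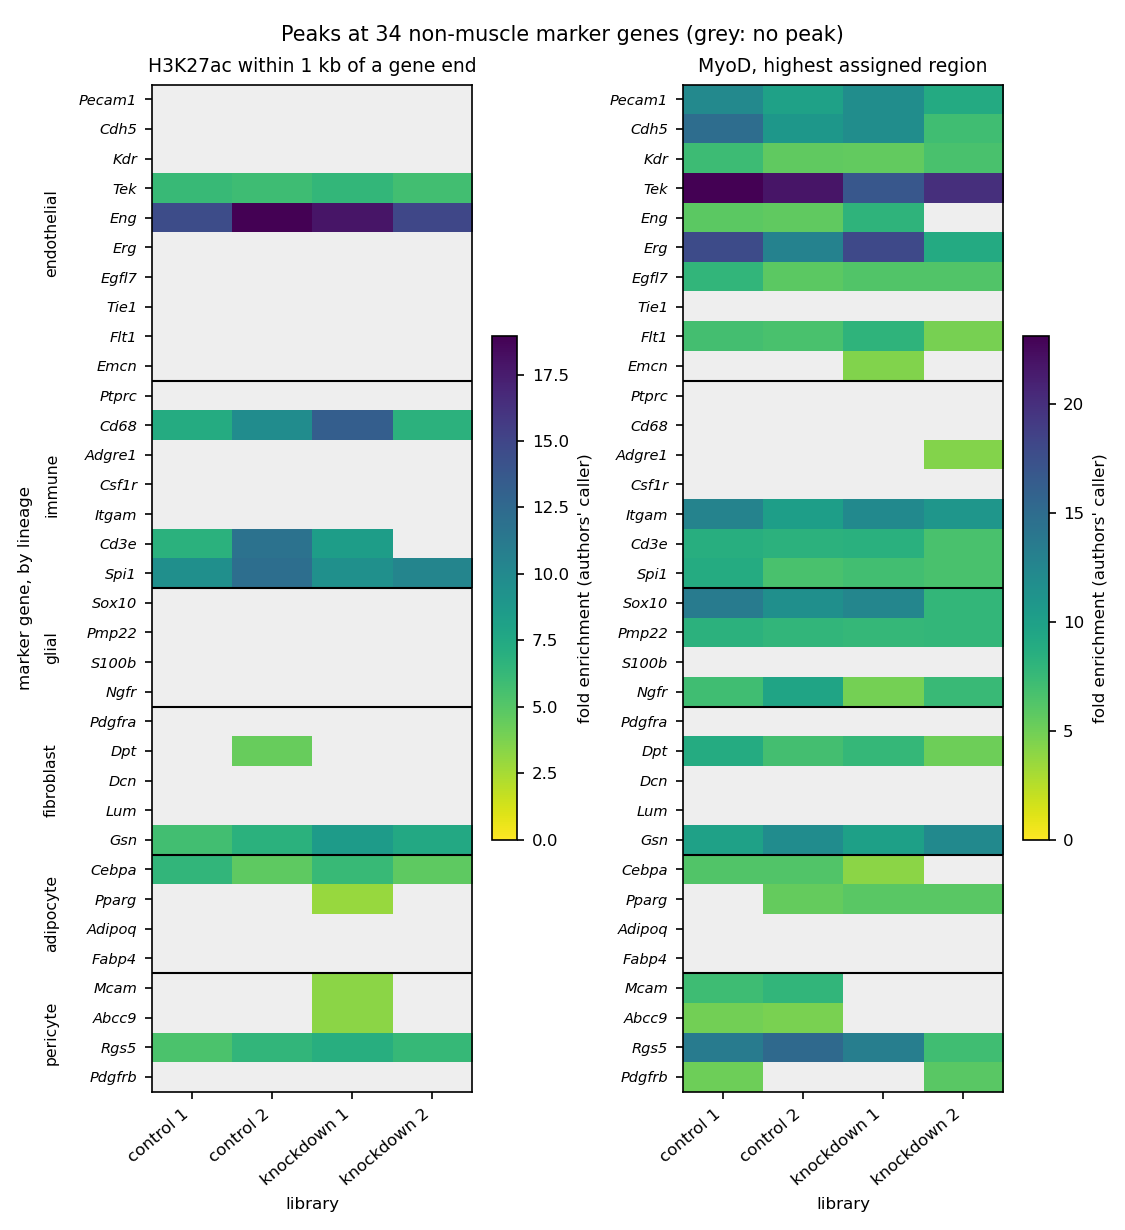
Fold enrichment at each of the 34 marker genes (rows, grouped by lineage) in the 4 libraries of each antibody (columns), for the highest H3K27ac peak within 1 kb of a gene end (left) and the highest MyoD peak assigned to the gene (right), with grey where no peak was called. On the left 7 rows are filled in all 4 libraries, and on the right the Tek row is darkest.

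Which end was acetylated differed among the 7. Strand and annotated starts were available for 24 of the 34 markers. At Tek, Gsn and Cebpa the peaks lay at the end that holds the start. At Eng, Cd68 and Rgs5 they lay at the far end of the gene in all 4 libraries. For Spi1 the strand was not in the table used, and its peaks lay at the end with the lower coordinate. Counted at annotated starts alone, internal starts included, 4 of 24 markers (16.7%) had a peak within 1 kb in all 4 libraries, against 39.4% of 17274 genes. These were Tek, Gsn, Cebpa and the glial gene Pmp22, whose internal starts are out of reach of the gene-end measure.

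Tek encodes an angiopoietin receptor of endothelial cells. The peak over its start (chr4:94738990-94740349, mm10, plus strand) had fold enrichments of 6.21 and 5.92 in control and 6.37 and 5.74 in knockdown libraries. The groups overlapped, and the values lay between the 49.7 and 64.9 percentile of their lists. No MyoD region lay over the start, and the nearest was 12.9 kb inside the gene. At Gsn, the gene of the actin-severing protein gelsolin, which many cell types express, a region of 6082 bp covered the outermost start (chr2:35254578-35260659, plus strand). Within 1 kb of the gene end its values were 5.76, 6.81, 8.55 and 7.52 in control 1, control 2, knockdown 1 and knockdown 2, the order used from here on. Both knockdown libraries stood above both controls, but over the whole region (8.37, 6.81, 8.55 and 7.52) the groups overlapped. Cebpa encodes a transcription factor of adipocyte differentiation. Its region ended 0.111 kb before the start (chr7:35117835-35119182, plus strand) and stood at 6.51, 4.73, 6.19 and 4.72 in the same order, so that the groups overlapped. A separate region over the start itself (chr7:35119289-35119887) stood at 3.90, 3.26 and 6.00 and had no peak in knockdown 2.

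The 300 bases around these acetylated starts (250 before and 50 after the start, RefSeq, GRCm38.p6) are shown because Tek, Gsn and Cebpa were the markers with H3K27ac in every library within 1 kb of the outermost start. They are written 5′ to 3′ on the strand of the gene, with each E-box core (CANNTG, which reads as CANNTG on both strands) in capitals. The windows are chr4:94739039-94739338 for Tek, chr2:35256109-35256408 for Gsn and chr7:35119043-35119342 for Cebpa.
Tek: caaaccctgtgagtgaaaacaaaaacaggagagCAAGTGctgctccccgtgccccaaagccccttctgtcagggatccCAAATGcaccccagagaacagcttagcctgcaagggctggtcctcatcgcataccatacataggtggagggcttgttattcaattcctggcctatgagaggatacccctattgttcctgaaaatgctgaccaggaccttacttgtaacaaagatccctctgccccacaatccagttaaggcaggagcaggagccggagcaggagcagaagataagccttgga
Gsn: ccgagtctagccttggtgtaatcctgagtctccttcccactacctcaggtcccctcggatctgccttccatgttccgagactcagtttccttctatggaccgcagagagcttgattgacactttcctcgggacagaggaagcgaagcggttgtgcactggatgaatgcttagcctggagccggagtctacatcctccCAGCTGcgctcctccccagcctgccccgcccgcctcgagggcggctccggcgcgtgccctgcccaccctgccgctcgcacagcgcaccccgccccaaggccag
Cebpa: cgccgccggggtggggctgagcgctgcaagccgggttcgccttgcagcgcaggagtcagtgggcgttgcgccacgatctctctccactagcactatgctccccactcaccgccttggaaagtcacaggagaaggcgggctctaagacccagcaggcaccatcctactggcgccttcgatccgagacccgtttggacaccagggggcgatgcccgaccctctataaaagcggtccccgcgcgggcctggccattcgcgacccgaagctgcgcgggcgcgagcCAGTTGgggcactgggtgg
The Tek window held 2 cores, CAAGTG and CAAATG. The Gsn window held 1, CAGCTG, and the Cebpa window 1, CAGTTG. Of 32619 RefSeq promoter windows of this length on the chromosomes used, 72.3% held a CANNTG, 16.4% a CAGCTG and 20.3% a CAGGTG or its reverse CACCTG. The last 2 motifs are cases of CANNTG. Of the 36 windows of 24 markers, 28 (77.8%), 10 (27.8%) and 7 (19.4%) held them, shares to be read as a description of these letters only.

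Pmp22, a gene of peripheral myelin that is also used outside glia, was acetylated at its internal starts. A region of 4895 bp (chr11:63130758-63135652, plus strand) covered 3 of its 4 annotated starts, with values of 10.2 and 10.9 in control and 8.55 and 8.28 in knockdown libraries. Both knockdown libraries were lower than both controls here, while the outermost start lay outside the region. A second region of 3553 bp lay 11.7 kb outside the gene (chr11:63113707-63117259) and stood at 15.6, 20.4, 19.1 and 15.2, with overlapping groups. A MyoD peak lay within 1 kb of a Pmp22 start in every library, at 4.63, 6.62, 5.50 and 5.09, but it belonged to different regions: chr11:63133104-63133574 lacked a peak in knockdown 2 and chr11:63131447-63131666 lacked one in control 1 and knockdown 1.

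**Figure D2:**
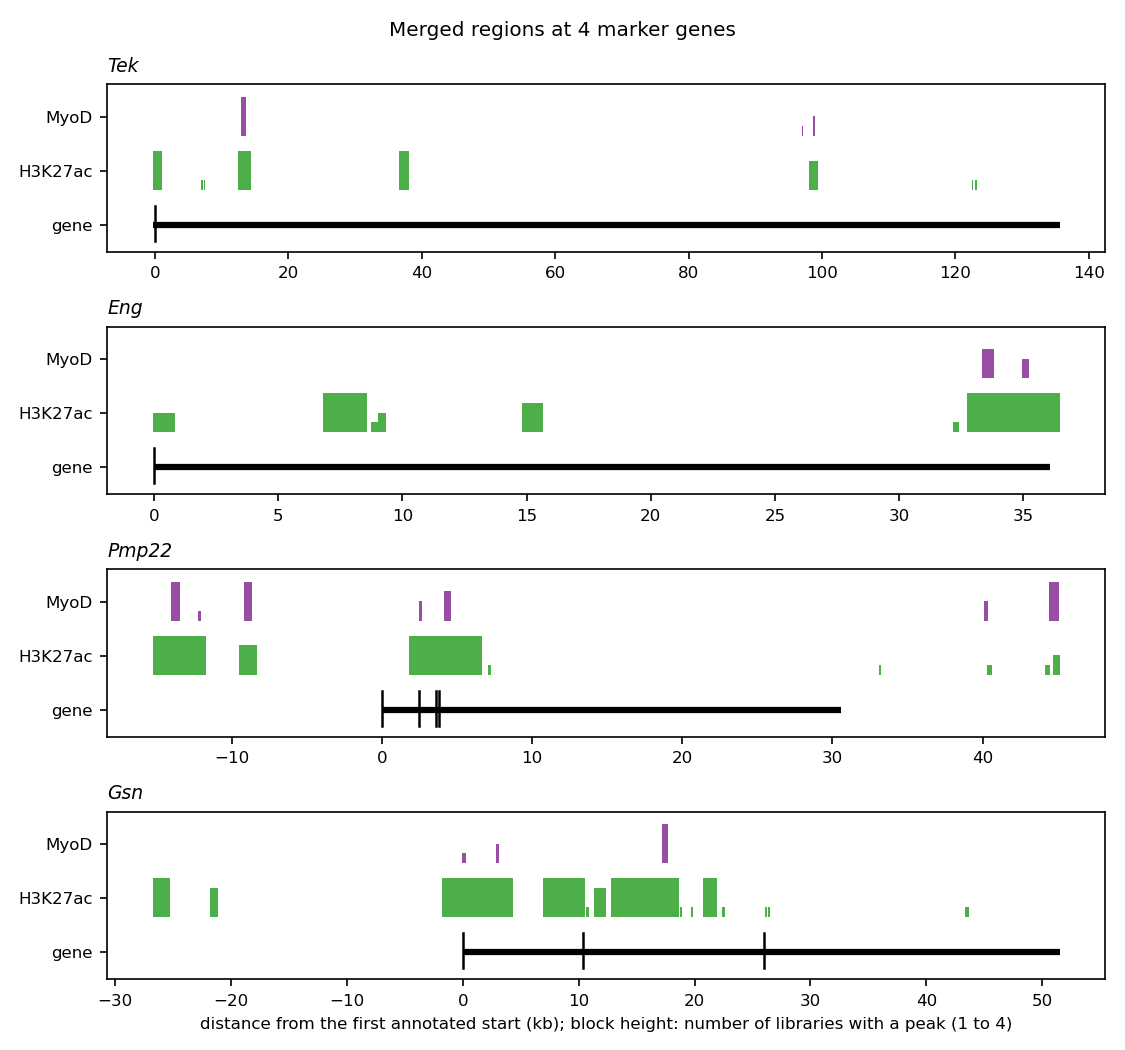
Merged H3K27ac (green) and MyoD (purple) regions at Tek, Eng, Pmp22 and Gsn against distance from the first annotated start in kb, with the gene as a black bar, annotated starts as ticks and block height for the number of libraries with a peak. Full-height H3K27ac blocks include those over the start at Tek and Gsn, over internal starts at Pmp22 and over the far end at Eng, and each gene has at least 1 more elsewhere.

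Eng, Cd68 and Rgs5 were acetylated away from their starts. Eng encodes endoglin, a co-receptor for TGF-β ligands. The region over its far end (chr2:32679306-32683072, plus strand) had the highest gene-end values of the set, 14.5 and 18.9 in control and 17.8 and 14.9 in knockdown libraries, at the 94.1 to 97.3 percentile. The groups overlapped. This region also covered an end of the neighbouring gene Fpgs, and at the Eng start a weak peak was called in control 1 and knockdown 1 alone (3.72 and 2.64).

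Cd68, a lysosomal protein of macrophages, had values of 7.25, 9.77, 13.3 and 6.76 at its far end. Its region (chr11:69661738-69664571) also covered an end of Mpdu1, and Cd68 left the count without H3K27ac control 1, when 6 markers remained, and with a limit of 0.5 kb, again at 6. The regulator of G-protein signalling Rgs5, a pericyte marker, stood at 5.39, 6.51, 7.04 and 6.25 at its far end (chr1:169694825-169696241), 39.3 kb from its start. The far-end values of Cd68 and Rgs5 overlapped between groups.

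Among the other immune markers, Spi1, a transcription factor of myeloid and B cells, carried H3K27ac 87 bp from its lower end (chr2:91082461-91085193) at 9.48 and 12.1 in control and 9.46 and 10.3 in knockdown libraries. The T-cell receptor component gene Cd3e had a region of all 4 libraries inside the gene near its far end (chr9:44999525-45001108), at 6.88, 11.8, 8.37 and 6.34. In knockdown 2 no peak reached within 1 kb of the end, and without that library 8 markers were counted. Ptprc, the pan-leukocyte phosphatase, had no region of either antibody. The macrophage receptor gene Csf1r had H3K27ac regions of 1 library each, and Adgre1, another macrophage surface receptor, had none.

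Regions were next counted anywhere in a gene or within 50 kb of it, where it was the nearest. A MyoD region with a peak in all 4 libraries was assigned to 16 of the 34 markers (47.1%), against 22.5% of all genes. They were 7 of 10 endothelial, 3 of 7 immune, 3 of 4 glial, 2 of 5 fibroblast, 0 of 4 adipocyte and 1 of 4 pericyte markers. An H3K27ac region of all 4 libraries, counted in the same way, was also assigned to 16 of the 34 (47.1%), against 50.2% of all genes. The lists shared 11 genes, with Eng, Cd68, Cebpa, Pparg and Pdgfrb in H3K27ac alone and Kdr, Egfl7, Flt1, Itgam and Ngfr in MyoD alone. The median length of the markers was 37.4 kb against 17.3 kb for all genes, and its part in this difference was not tested. None of the MyoD regions lay at a gene end: 0 of 34 markers had a MyoD peak within 1 kb of an end in all 4 libraries at once, against 5.46% of all genes.

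**Figure D3:**
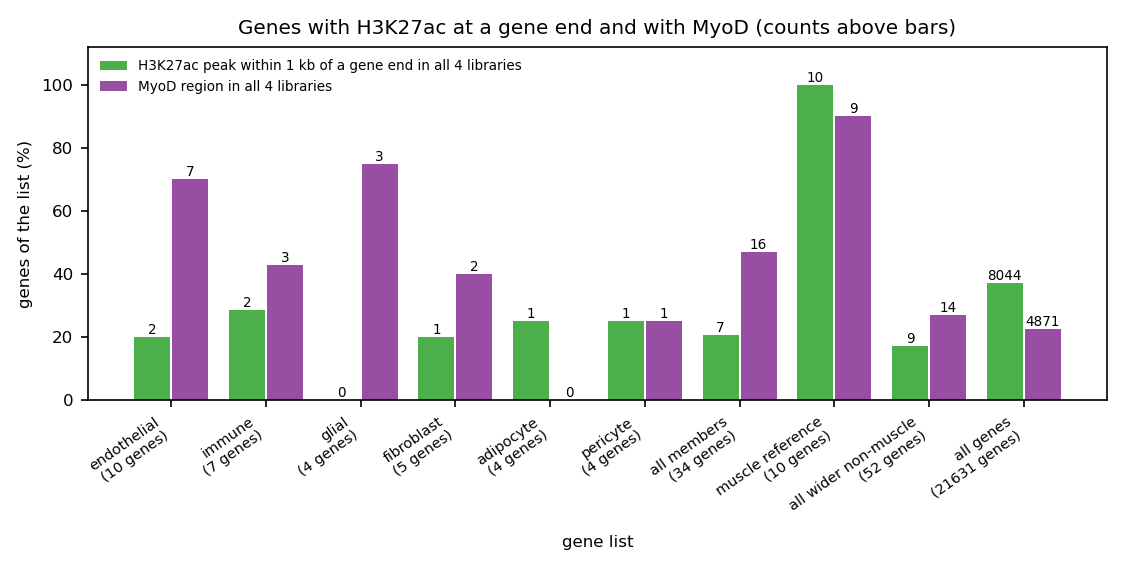
Share of genes in each list (%) with gene-end H3K27ac (limit 1 kb) in every library (green) and with a MyoD region in all 4 libraries (purple), with counts above the bars. The muscle reference genes stand at 10 and 9 of 10, and the 34 markers at 7 and 16.

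The 16 genes held 20 MyoD regions of all 4 libraries, 13 inside the gene body and 7 outside it. Their distance to the nearest gene end ran from 1.47 to 53.4 kb, with a median of 12.7 kb against 13.4 kb for the 8457 MyoD regions of all 4 libraries assigned to any gene. The median of their mean fold enrichment was 7.69, against 8.38 over all genes. Of the 20, 12 (60.0%, 95% Clopper-Pearson interval 36.1% to 80.9%, counting error only) overlapped an H3K27ac region of all 4 libraries. The share over all genes was 77.9%. The interval takes the 20 regions as independent although some share a gene, so it cannot decide whether the shares differ.

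Endothelial genes carried 9 of the 20 regions. The strongest lay inside Tek (chr4:94752153-94752945), with fold enrichments of 23.1 and 21.9 in control and 16.8 and 19.99 in knockdown libraries. Both knockdown libraries were lower than both controls, and the values lay at the 94.5 to 98.8 percentile of their lists. It fell within an H3K27ac region of 1914 bp (7.57, 11.5, 10.9 and 12.1).

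Erg, an ETS-family factor of endothelium, had a region 26.3 kb from its nearest annotated start (chr16:95556693-95557369) at 17.8, 12.9, 18.1 and 9.01, within H3K27ac of 9.30, 15.7, 14.9 and 12.4. A second Erg region (chr16:95532733-95533161) stood at 7.14, 6.66, 7.74 and 7.45 and overlapped no H3K27ac peak. No H3K27ac peak lay within 1 kb of any of the 3 annotated Erg starts.

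Pecam1 and Cdh5, which encode adhesion proteins of endothelial junctions, also carried MyoD inside the gene. Pecam1 had MyoD at chr11:106657893-106658669 (12.2, 8.61, 11.8 and 7.45) and chr11:106674495-106674985 (11.2, 9.94, 10.3 and 9.01), both inside the gene and inside H3K27ac regions of all 4 libraries. The wider of these, of 3836 bp, stood at 13.1, 16.0, 14.9 and 13.4. In Cdh5 the MyoD region at chr8:104127096-104127593 had values of 14.9 and 10.9 in control and 11.8 and 7.05 in knockdown libraries, while the H3K27ac region around it was weak (3.53, 2.89, 4.37 and 3.95). Neither gene had an H3K27ac peak within 1 kb of an end in any library.

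Kdr and Flt1, receptors for vascular endothelial growth factors, and Egfl7, a secreted endothelial protein, had MyoD without acetylation. The Flt1 region (chr5:147601913-147602311) stood at 5.62, 6.62, 8.10 and 4.70. The Kdr region lay 10.7 kb outside the gene (7.27, 5.63, 5.53 and 6.66), and the Egfl7 region 7.20 kb outside (7.93, 5.85, 6.26 and 6.27). None of the 3 overlapped an H3K27ac peak of any library, and in each the values of the groups overlapped. Kdr and Flt1 had no H3K27ac region at all. Emcn, the gene of the endothelial surface protein endomucin, had an H3K27ac region 47.3 kb outside the gene at 3.16, 4.73 and 3.27 with no peak in knockdown 2, and a MyoD peak in knockdown 1 alone (4.42). Tie1, the receptor related to Tek, had no region of either antibody.

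**Figure D4:**
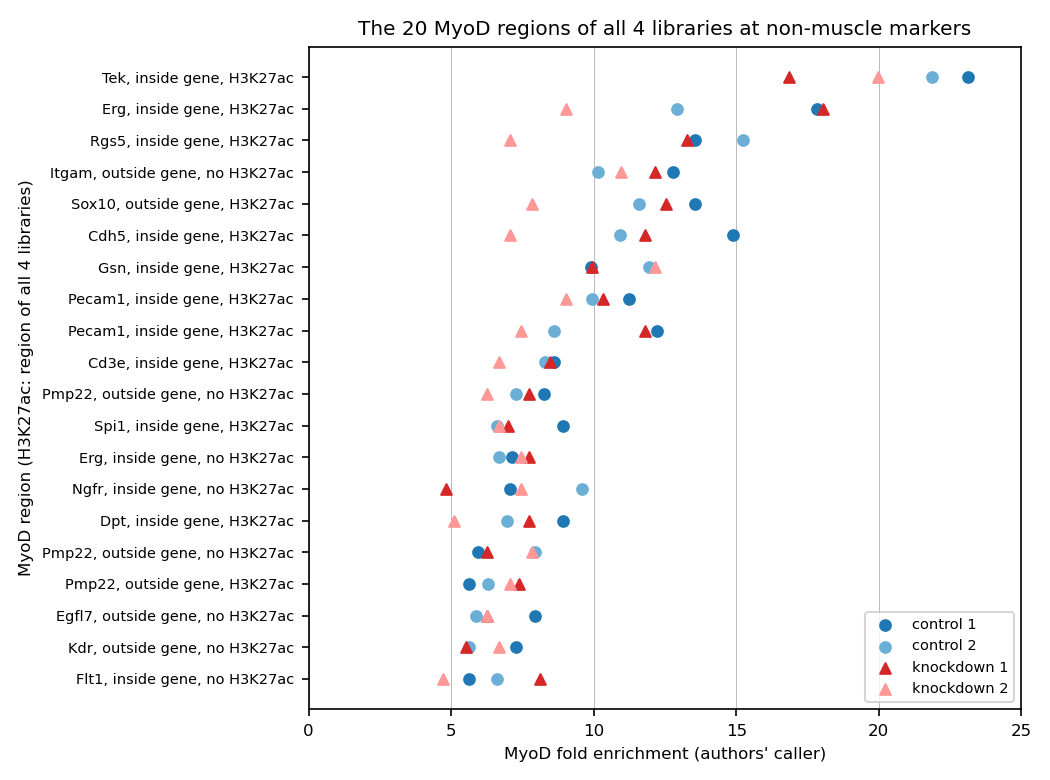
MyoD fold enrichment per library (circles for control, triangles for knockdown) at the 20 marker regions with a peak in all 4 libraries, ordered by mean and labelled by gene, position and overlap with H3K27ac of all 4 libraries. The Tek region stands apart on the right at 16.8 to 23.1, and the regions of Flt1, Kdr and Egfl7, without H3K27ac, are the 3 lowest by mean.

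Glial markers held 5 of the 20 regions. The region nearest to Sox10, the neural crest and Schwann cell factor, lay 12.3 kb outside the gene (chr15:79176834-79177589) at 13.5, 11.6, 12.5 and 7.85, within an H3K27ac region of 7.62, 7.40, 8.91 and 8.03. Both antibodies were present there in every library, although Sox10 had no gene-end acetylation. Pmp22 had 3, all outside the gene, of which 1 overlapped H3K27ac of all 4 libraries (chr11:63114951-63115499; 5.62, 6.29, 7.37 and 7.05). Ngfr, the low-affinity neurotrophin receptor, had 1 inside the gene (chr11:95571761-95572133; 7.08, 9.60, 4.81 and 7.45) with no H3K27ac peak of any library. S100b had no region of either antibody.

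Among immune markers the strongest MyoD region lay 3.58 kb before the start of Itgam, the integrin αM gene of myeloid cells (chr7:128058568-128059064), at 12.8 and 10.1 in control and 12.2 and 10.97 in knockdown libraries. It overlapped an H3K27ac region of control 2 and knockdown 1 alone. The Cd3e region (8.59, 8.28, 8.47 and 6.66) and the Spi1 region (8.92, 6.62, 6.999 and 6.66) lay within the acetylated regions already described. So 2 of the 3 immune MyoD regions of all 4 libraries overlapped H3K27ac of all 4, beside 77.9% of such regions over all genes. Adgre1 had a MyoD peak in knockdown 2 alone (4.26).

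Of the fibroblast markers, Gsn and Dpt carried both antibodies. Gsn had MyoD 6.82 kb from its nearest annotated start (chr2:35273563-35274095) at 9.91, 11.9, 9.95 and 12.1, within a region of 5850 bp that was its strongest in H3K27ac (12.5, 15.0, 15.1 and 14.4). Dpt, the matrix protein dermatopontin, had MyoD 1.97 kb after its start (chr1:164798629-164799035) at 8.92, 6.95, 7.74 and 5.09, within H3K27ac of 8.37, 10.1, 8.91 and 7.77. That H3K27ac region began 0.66 kb from the Dpt start, but only the control 2 peak came within 1 kb of it. Pdgfra, the receptor that marks fibro-adipogenic progenitors, and the proteoglycan gene Lum had no region of either antibody, and Dcn had 1 H3K27ac region in 1 library.

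The adipocyte products Adipoq and Fabp4 likewise had no region. Pparg, the nuclear receptor of adipogenesis, had the strongest H3K27ac region of all the markers by mean fold, 1.77 kb beyond its far end (chr6:115492179-115495464) at 20.3, 23.7, 21.1 and 18.5. These values lay at the 98.4 to 99.2 percentile of their lists, whereas at its starts Pparg had a peak in knockdown 1 alone (2.91). None of the 4 MyoD regions of Pparg was present in more than 1 library. A Cebpa MyoD region 7.62 kb from the start (6.28, 5.21 and 4.05) lacked a peak in knockdown 2.

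Pericyte markers had 1 region of all 4 MyoD libraries, 21.2 kb inside Rgs5 (chr1:169676737-169677362), at 13.5, 15.2, 13.3 and 7.05. It lay within an H3K27ac region of 7.99, 11.8, 7.90 and 9.05. Pdgfrb, the receptor that marks pericytes and other mural cells, had single MyoD peaks in control 1 and in knockdown 2, in different regions, and 1 weak H3K27ac region of all 4 libraries inside the gene (3.04, 5.33, 2.76 and 3.003).

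The wider lists, also chosen with earlier results of these data known, were counted in the same way. Of 52 further non-muscle markers, 9 (17.3%) had H3K27ac at a gene end in all 4 libraries, against 37.2% of all genes. A MyoD region in all 4 was assigned to 14 (26.9%), nearer to the 22.5% of all genes than to the 47.1% of the 34 markers. Those with gene-end H3K27ac included Erbb3 of glia, Col1a2 and Thy1 of fibroblasts, Lep and Lpl of adipocytes, and Notch3, Acta2 and Tagln of pericytes and smooth muscle. None of the 10 further endothelial and 10 further immune genes had it. The highest in H3K27ac was Acta2, smooth muscle α-actin, at 18.2, 24.0, 20.01 and 17.2. Col1a2, a fibrillar collagen gene, stood at 12.8, 18.9, 14.7 and 11.9. Mean values were 9.12 at Thy1, 8.17 at Tagln, 6.67 at Notch3, 6.38 at Erbb3, 4.46 at Lpl and 4.32 at Lep.

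Control and knockdown libraries were then compared for the question of whether peaks at non-muscle genes differ after LncMyoD knockdown. H3K27ac peaks assigned to the markers numbered 60 and 73 in control and 85 and 54 in knockdown libraries. The means were 66.5 ± 9.19 and 69.5 ± 21.9 (SD, n = 2), and the difference of 3 was within the spread of the knockdown pair (two-sided exact permutation p = 1, smallest possible 0.333). Its direction turned without control 1 (−3.5) or knockdown 1 (−12.5) and with equal numbers of peaks per library (−1.5). Over all genes H3K27ac peaks differed by −5.47%, opposite in sign to the markers, with overlapping groups (exact permutation p = 1). Knockdown 1 also had the longest list and held 25 of the 43 marker regions found in a single library. The matching share over all genes is not given here, so this count is a description only.

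MyoD peaks at the markers numbered 31 and 43 in control and 32 and 27 in knockdown libraries. The means were 37 ± 8.49 and 29.5 ± 3.54 (SD, n = 2), and the groups overlapped (difference −7.5 or −20.3%, exact permutation p = 0.667). Over all genes MyoD peaks numbered 14920 and 14843 in control and 13799 and 10947 in knockdown libraries, a difference of −16.9% without overlap (exact permutation p = 0.333). At the markers, the difference of −7.5 became −1.5 without control 2 or with equal numbers of peaks, and −13.5 without control 1. Of the 6 lineages, the groups lacked overlap at pericyte markers, as they did over all genes, with 4 and 5 MyoD peaks in control and 1 and 2 in knockdown libraries (two-sided exact permutation p = 0.333, which is also the lowest value 2 against 2 can give).

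**Figure D5:**
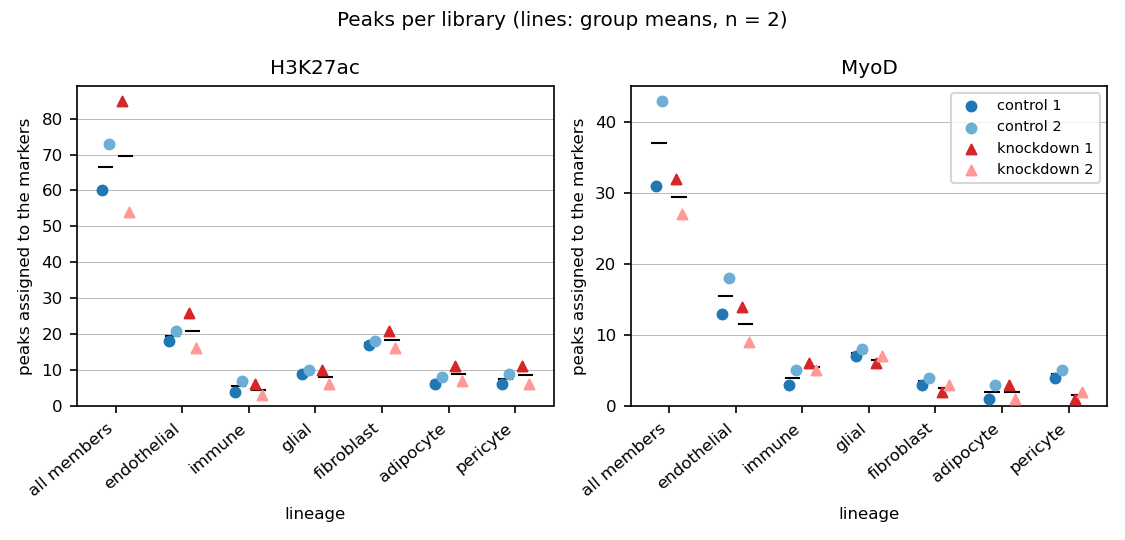
Number of H3K27ac (left) and MyoD (right) peaks assigned to the markers in each library, in total and by lineage, with circles for control, triangles for knockdown and lines for group means of 2 libraries. For all markers together the control and knockdown points overlap for both antibodies.

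Fold enrichments were set side by side in the regions of all 4 libraries, as a description, since background and depth move them. Of the 20 MyoD regions, both knockdown values lay below both controls in 2 (at Tek and Rgs5), against 21.4% of such regions over all genes, and above both in 2 (at Erg and Pmp22), against 10.3%. Of the 33 H3K27ac regions, they lay below in 3 (at Eng, Pdgfrb and Pmp22), against 9.27%, and above in 4 (at Cdh5, Pparg, Rgs5 and Sox10), against 14.1%.

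Regions with a peak in both libraries of one group and neither of the other were few. Of 98 H3K27ac regions at the markers, 33 were present in all 4 libraries, 2 in the controls alone (at Cdh5 and Egfl7; 2.04% against 1.45% of all assigned regions) and 3 in the knockdown alone (at Dpt, Cebpa and Erg; 3.06% against 0.765%). All 5 were weak. The highest was the Cdh5 region (3.49 and 4.95), the Egfl7 region stood at 2.79 and 3.03, and the knockdown-only regions stood at 3.09 and 3.44 for Dpt, 2.73 and 3.003 for Cebpa and 2.91 and 3.70 for Erg. When each library was reduced to the same number of peaks the counts were 4 and 0, and with stricter peaks (−log10 q of at least 5) 1 and 0. Shares of all regions at these settings are not given here, so these counts are a description only.

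Among 55 MyoD regions, 20 had a peak in every library, 6 in the controls alone (10.9% against 4.87% of all assigned regions) and 0 in the knockdown alone (against 0.688%). The 6 lay at Mcam, Abcc9, Tek, Eng, Gsn and Pmp22. The Tek region (chr4:94837889-94838174; 5.91 and 5.30) was 98.6 kb from the start, inside the gene, and the Pmp22 region (4.30 and 7.29) lay 9.50 kb outside the gene. The Gsn region (3.87 and 4.64) and the Eng region (3.57 and 3.47) lay between the 2.41 and 14.4 percentile of the control lists. With equal numbers of peaks, or with a −log10 q of at least 5, 3 regions were control-only, at Tek, Cebpa and Mcam. Here too the shares of all regions at these settings are not given.

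At Mcam and Abcc9 the control-only MyoD regions overlapped the promoter window, which no MyoD region of all 4 libraries did at the 24 markers with a window. Mcam encodes an adhesion molecule found on pericytes and endothelial cells, and Abcc9 encodes a regulatory subunit of ATP-sensitive potassium channels. The Mcam region (chr9:44134268-44134624) ended 34 bp before the start and had values of 7.14 and 7.95. The Abcc9 region (chr6:142702081-142702345) covered the start and stood at 4.96 and 4.31, at the 19.9 and 8.69 percentile of the control lists. Unlike the Mcam region, it was not control-only with equal numbers of peaks or with a −log10 q of at least 5. Neither promoter window overlapped an H3K27ac region, although the Abcc9 MyoD region overlapped an H3K27ac peak of knockdown 1 (3.27). The RefSeq windows (GRCm38.p6) are shown because the MyoD peaks lie at them, with each CANNTG in capitals: chr9:44134408-44134707 on the plus strand for Mcam and chr6:142702225-142702524 on the minus strand for Abcc9, both 5′ to 3′.
Mcam: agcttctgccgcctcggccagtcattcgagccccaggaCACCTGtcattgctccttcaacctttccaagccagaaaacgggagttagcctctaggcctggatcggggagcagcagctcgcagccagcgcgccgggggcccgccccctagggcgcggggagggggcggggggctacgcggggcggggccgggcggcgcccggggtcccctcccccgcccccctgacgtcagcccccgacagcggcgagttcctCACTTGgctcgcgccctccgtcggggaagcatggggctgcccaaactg
Abcc9: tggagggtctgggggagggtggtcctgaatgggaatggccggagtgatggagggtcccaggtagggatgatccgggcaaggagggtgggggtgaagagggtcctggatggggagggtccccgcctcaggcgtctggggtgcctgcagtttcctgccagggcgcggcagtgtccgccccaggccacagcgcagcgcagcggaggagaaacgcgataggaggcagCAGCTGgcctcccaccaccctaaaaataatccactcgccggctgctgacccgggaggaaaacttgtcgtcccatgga
The Mcam window held CACCTG and CACTTG. The MyoD summits lay 253 and 192 bases before the start in control 1 and control 2, at 43.5 and 17.5 bases from the centre of the nearest CANNTG in the window. The Abcc9 window held 1 core, CAGCTG, and the summits lay 108 and 109 bases after the start, beyond the window and 132.5 and 133.5 bases from that core. A match of these letters is a description and not a site.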

How the data were processed

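ChIP-seq peak lists of 8 libraries were used, 1 list per library. Per the submitters' processing notes the build was mm10, and the tools named are MACS2 2.1.1, Bowtie2 2.3.2, bedtools 2.26.0, SAMtools 1.3 and Picard 2.9.2. Their options and the pairing of libraries with inputs: not given in the sources used here. The deposited lists give, for every peak, a linear ratio (fold enrichment), −log10 of the p-value and of the q-value, a score that follows q, and the summit. The authors' fold serves here as a description within 1 list, since a higher background or a deeper library moves it.

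Peaks on chromosomes 1 to 19 and X were merged per antibody (gap 0 bp, 1 shared base for presence). Regions were assigned to the gene body they overlapped, to the gene with the nearest end where there were several (ties by name), or else to the nearest gene within 50 kb. Genes were the 21631 protein-coding or listed RefSeq genes (assembly GRCm38.p6, which corresponds to mm10). All members and list genes matched by symbol, and starts and strand came from RefSeq promoter windows, which 24 of 34 members had. A region over several genes carries the name of 1 of them, and assignment to a gene does not show that the region acts on it. Peak numbers were compared by a two-sided exact permutation test with 6 possible assignments. Scripts ran in Python 3.11.15 with pandas 2.3.3, numpy 2.4.6, scipy 1.17.1 and matplotlib 3.10.9 and were tested on simulated peaks.

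The members and lists were chosen with earlier results of these data known. All 34 members are accounted for, with values in each library for those with gene-end H3K27ac or MyoD in all 4 libraries or a group-only region, and with values for the top 3 genes of each further list by mean gene-end fold, except 1 that is not reported here.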

Additional observations from a re-analysis of the deposited data

How the results depend on the processing

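Read depth could not be taken from the peak lists, and its part in the calling of weak peaks was not tested. Some values below concern weak peaks, while the limits on gene-end distance also move strong regions, such as that of Pparg. With a −log10 q of at least 5, gene-end H3K27ac in all libraries was found at 0 adipocyte markers and MyoD at 1 fibroblast marker, the H3K27ac peak difference was 0, and group-only regions numbered 1 and 0 for H3K27ac and 3 control-only for MyoD. When each library was reduced to the same number of peaks the H3K27ac difference was −1.5, H3K27ac group-only regions numbered 4 and 0, and control-only MyoD regions 3. With assignment limited to 10 kb, 1 control-only H3K27ac region was left. For group-only regions, the shares of all regions at these settings are not given here. With a gene-end limit of 2 kb, 11 markers were acetylated, among them 1 glial, 2 fibroblast and 2 adipocyte genes (Cd3e, Pmp22, Dpt and Pparg were added), and with 0.5 kb 1 immune gene. Shares of all genes at these 2 limits are not given here, so the counts are a description only. At annotated starts alone the count was 4 of the 24 markers with a start. By lineage it was 1 of 8 endothelial, 0 of 4 immune, 1 of 3 glial and 0 of 3 pericyte markers. Spi1, without an annotated start, could not be counted. The planned rule on coverage could not change a value, because a merged region contains its peaks whole. In its place, an alternative chosen after seeing the data asked the peaks of a library to cover 50% of a region, and gave 1 immune and 0 adipocyte genes.

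Leaving out 1 library at a time gave 6 to 8 acetylated markers (1 to 3 immune), 16 to 18 markers with MyoD (0 to 1 adipocyte) and 55.0% to 65.0% of MyoD regions within H3K27ac. The peak difference ran from −12.5 to 18.5 for H3K27ac and from −13.5 to −1.5 for MyoD. Group-only regions, then set between 1 library and 2, ran from 2 to 13 control-only and 3 to 28 knockdown-only for H3K27ac and from 6 to 16 and 0 to 6 for MyoD. The highest came without H3K27ac control 1 (13), H3K27ac knockdown 2 (28), MyoD control 1 (16) and MyoD knockdown 2 (6). Shares of all regions with a library left out are not given here, and the cause of these shifts was not tested. In all, 188 of the alternative values kept their direction or stayed within 1.5 times, or within the interval, of the main value, 33 moved and 4 turned direction or fell to 0.

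The replicate block, with differences taken within replicate numbers (smallest possible exact p 0.5), left the differences at 3 (p = 1) and −7.5 (p = 1). The labels tie nothing but the number, and deviations of same-numbered libraries correlated at −0.291 for H3K27ac and 0.0771 for MyoD over 21631 genes. A crossed pairing for H3K27ac, chosen after seeing the data, also gave 3 (exact p = 1).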
